A study of Mus musculus with 130 samples.

Results

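The genes described here encode proteins that oxidise, remove or read 5-methylcytosine in DNA: the dioxygenases Tet1, Tet2 and Tet3, the glycosylase Tdg, and the methyl-CpG binding proteins Mbd1, Mbd2, Mbd3, Mbd4 and Zbtb33. They were listed by name, with earlier results of these data known, and all 9 were found among the 52550 genes of the deposited tables. RNA was measured by Smart-seq2 RNA-seq in mouse embryonic stem cells, in 10 groups of 1 library. The other 120 of the 130 samples of the series were not analysed here.

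Of the 6 cell lines, 3 had the C57BL/6xCBA background. Clone 248-6 gave the library labelled G9a/GLP DKO and is of genotype G9a-/-;GLP-/-, in which the genes for both subunits of the main H3K9 dimethyltransferase are knocked out. The G9a CM library came from clone G7, which is G9a-/- and carries a transgene with the changes Y1120V and Y1207F, with a promoter not given in the sources used here. Both were set against WT TT2, the wild-type line. The other 3 lines were 129S4/SvJae: Dnmt3a/3b DKO (labelled Dnmt 3a/3b-/-), which lacks the de novo DNA methyltransferases, Dnmt1/3a/3b TKO (Dnmt1/3a/3b-/-), which also lacks the maintenance enzyme, and the wild-type line WT J1. The last 4 libraries were wild-type TT2 cells given DMSO (the inhibitor control) or UNC0638, an inhibitor of G9a and GLP. The UNC0638 cells were collected on day 2, 4 or 14. The title of the control gives no day, so treatment and time in culture cannot be told apart. Titles state the UNC0638 dose as 250 nM and the treatment protocol as 250 uM, and no label says whether exposure lasted through day 14. All cells were kept in serum with leukemia inhibitory factor on gelatin-coated plates.

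In mammals, TET enzymes oxidise 5-methylcytosine to 5-hydroxymethylcytosine and further to formyl and carboxyl forms. TDG cuts out the formyl and carboxyl bases, and base excision repair then restores an unmodified cytosine. The methyl-CpG binders read the mark instead: MBD2 and MBD3 are alternative subunits of the NuRD chromatin remodelling and deacetylase complex, MBD1 recruits H3K9 methyltransferase activity, MBD4 is a thymine glycosylase for deaminated 5-methylcytosine, and ZBTB33 (Kaiso) is a zinc finger protein that recruits the NCoR corepressor. MBD3 of mammals binds methylated DNA poorly. In embryonic stem cells TET1 and TET2 are known as the main TET enzymes, and TET3 as the form of the oocyte and of differentiated cells.

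Levels are given as CPM, the count scaled to a common library size, for the same gene across libraries, and as the deposited TPM, which also divides by transcript length, for one gene against another. Total counts ran between 11436808 and 25609600 per library. Pou5f1, Sox2, Nanog and the other embryonic stem cell markers, 8 in all, each reached 1 CPM in every library. Pou5f1 was much lower in the lines, at 10.2 to 33.6 CPM, than in the inhibitor experiment, at 291 to 456 CPM. Fibroblast markers summed to 3.85 to 10.7 CPM, and 0 of 8 reached 1 CPM in every library. Summed levels in the inhibitor experiment were 132 to 199 CPM, against 20.9 to 73.0 CPM in the lines, for 7 neural markers and 91.9 to 188 CPM, against 25.7 to 70.7 CPM, for 7 trophoblast markers. Germ cell markers ran the other way, at 69.4 to 91.6 CPM, against 101 to 299 CPM. Endoderm markers overlapped, at 8.46 to 19.4 CPM, against 3.21 to 15.5 CPM, as did primed-state markers, at 256 to 533 CPM, against 31.7 to 338 CPM. A sum need not hold for each gene of a list. By the size rule defined below, the inhibitor control over WT TT2 had 2 higher and 1 lower of 5 measured neural markers. For trophoblast markers it had 3 higher and 0 lower of 5 measured. Of all genes, 47.8% passed there.

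Some of these lists also moved in the comparisons by the size rule that is defined in the next paragraph. The 2-cell-stage markers summed to 114 CPM in the library labelled G9a/GLP DKO and 11.5 CPM in G9a CM, against 1.81 CPM in WT TT2. Of the 7 listed genes, 7 and 4 were higher. They summed to 12.2 CPM in Dnmt3a/3b DKO and 19.9 CPM in Dnmt1/3a/3b TKO, against 0.595 CPM in WT J1, with 3 of the 7 higher in each. On UNC0638 day 2, 4 and 14 they summed to 22.3, 35.3 and 327 CPM, against 1.54 CPM in the inhibitor control, with 5, 7 and 7 of the 7 higher. None of the 7 reached 1 CPM in WT TT2, WT J1 or the inhibitor control. Such a gene was measured only where it reached 1 CPM in the mutant or treated library, and could then only be called higher. Neural markers summed to 73.0 CPM in Dnmt3a/3b DKO and 52.4 CPM in Dnmt1/3a/3b TKO, against 20.9 CPM in WT J1, and trophoblast markers to 70.7 and 63.4 CPM, against 25.7 CPM. Primed-state markers summed to 253 CPM in the library labelled G9a/GLP DKO and 338 CPM in G9a CM, against 123 CPM in WT TT2. In these comparisons 1 of 4 and 3 of 4 measured genes were higher. The primed-state list includes Dnmt3b, which made up most of each of these sums and is given again with the DNA methyltransferase genes. Of the 8 embryonic stem cell markers, 2 were higher and 2 lower in G9a CM over WT TT2. In each Dnmt mutant over WT J1, 2 of these 8 were lower, which is near the share over all genes. Under UNC0638, 2 of 4 measured primed-state markers were lower on day 2. Trophoblast markers had 2 lower and 1 higher of 4 measured on day 4, and endoderm markers 2 higher of 3 measured on day 14. Other movements of these lists are not given here. The part of these markers in the results was not tested. Among the targeted genes, Ehmt1 (GLP) stood at 7.99 CPM in the library labelled G9a/GLP DKO, against 40.1 CPM in WT TT2, whereas Ehmt2 (G9a) stood at 18.0 CPM there, against 15.2 CPM in WT TT2. A count over the whole gene does not show whether the deleted exons were read. Dnmt3b stood at 3.02 CPM in Dnmt3a/3b DKO and 2.65 CPM in Dnmt1/3a/3b TKO, against 26.5 CPM in WT J1. Dnmt1 stood at 6.28 CPM in Dnmt1/3a/3b TKO, against 45.9 CPM in WT J1.

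With 1 library a group no condition could be tested. Each difference is therefore a difference of log2(CPM + 1) between a pair of libraries, and each fold is a ratio of CPM with the exact 95% interval that counting error alone gives. A gene is called past the size rule when its log2 difference was at least 1 in size, it had at least 1 CPM in either library, and that interval excluded 1. In these bulk libraries fewer cells expressing a gene and less RNA per cell cannot be told apart.

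Per length, Tet1 was the most abundant of the 9 genes in 4 of the 6 lines and Mbd3 in the other two. In the 6 lines Tet1 had 23.2 to 62.3 TPM and Mbd3 10.2 to 54.0 TPM, while Tet3 was the lowest gene in every line at 0.14 to 0.67 TPM. In the 4 libraries of the inhibitor experiment the order was different: Mbd3 came first at 149.77 to 204.12 TPM and Tdg second at 40.1 to 47.0 TPM, and Tet1 had 9.99 to 23.6 TPM. Neighbours at the low end of the order were close, with Mbd1 at 2.44 TPM and Mbd2 at 2.52 TPM in WT TT2, and their spread between cultures is not known.

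**Figure D1:**
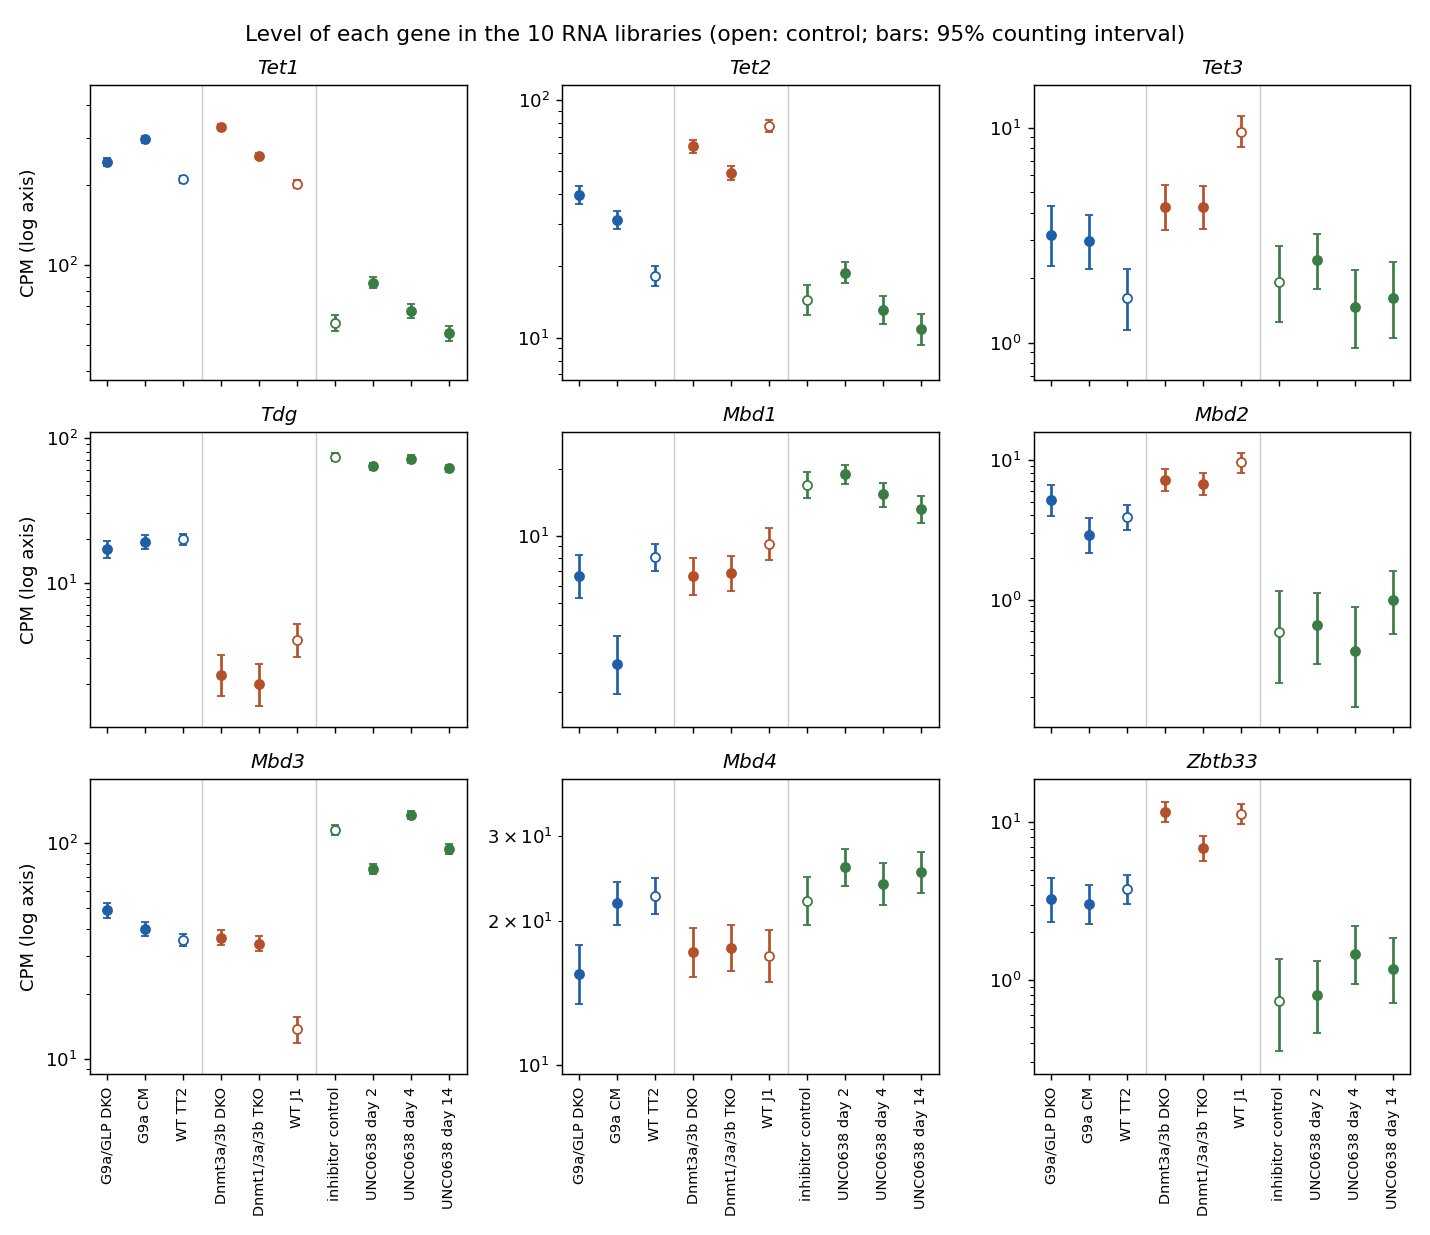
CPM on a log axis (vertical) for each of the 9 genes in the 10 libraries (horizontal), with open circles for the wild-type or vehicle library of each set, filled circles for mutants and treated cells, and bars for the 95% counting interval. Within a set the points of most genes lie near each other, and the largest steps are between sets, as for Tdg, Mbd2 and Zbtb33.

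Over the 6 lines the median gene of the 9 had a log2 range of 1.65, against 1.13 for all genes measured there. Over the 4 libraries of the inhibitor experiment it had a log2 range of 0.49, against 0.48 for all genes. The number past the size rule was 6 of 9 for WT J1 over WT TT2, where 23.8% of all genes passed, and 5 of 9 for the inhibitor control over WT TT2, where 47.8% passed. The second count is near the share over all genes. For the 4 mutant lines over their own wild type the number was 1 or 2 of 9, where 10.7% to 21.7% of all genes passed, which is also near that share.

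Tet1 encodes the TET enzyme with the most RNA in these cells, with 243.7 CPM in the library labelled G9a/GLP DKO and 296.6 CPM in G9a CM, against 209.99 CPM in WT TT2. It had 331 CPM in Dnmt3a/3b DKO and 257 CPM in Dnmt1/3a/3b TKO, against 202 CPM in WT J1. All 4 mutant libraries were thus higher than their wild type in CPM, by log2 differences of 0.21 to 0.71, and none passed the size rule. The 1.63-fold ratio of Dnmt3a/3b DKO over WT J1, with a counting interval of 1.56 to 1.71, was the largest of the 4.

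Per length the picture for Tet1 was different in the C57BL/6xCBA lines. Its TPM was 48.9 in the library labelled G9a/GLP DKO and 58.8 in G9a CM, against 62.3 in WT TT2, so both mutants were lower on that scale, by log2(TPM + 1) differences of -0.34 and -0.082. RSEM had assigned Tet1 a mean transcript length of 5718 bases in the library labelled G9a/GLP DKO and 5524 bases in G9a CM, against 3328 bases in WT TT2, the shortest of the 10 libraries. The direction for Tet1 in these lines therefore depends on the scale. In the 129S4/SvJae lines both scales gave the same direction, with 40.9 TPM in Dnmt3a/3b DKO and 30.7 TPM in Dnmt1/3a/3b TKO, against 23.2 TPM in WT J1.

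Tet2 is the TET gene whose protein lacks the CXXC domain that TET1 and TET3 carry. It had 39.7 CPM in the library labelled G9a/GLP DKO and 31.3 CPM in G9a CM, against 18.2 CPM in WT TT2. It was the 1 gene of the 9 past the size rule in the library labelled G9a/GLP DKO over WT TT2, where 17.1% of all genes passed: the ratio was 2.18 (interval 1.92 to 2.48), a log2 difference of 1.08. In G9a CM the ratio was 1.72 (interval 1.51 to 1.95), a log2 difference of 0.75 that did not pass. Between the mutants themselves, the library labelled G9a/GLP DKO over G9a CM gave a ratio of 1.27 (interval 1.12 to 1.44). TPM gave the same directions, with 12.4 in the library labelled G9a/GLP DKO and 7.22 in G9a CM, against 4.43 in WT TT2. WT J1, at 78.0 CPM, was higher than any of these, so the library labelled G9a/GLP DKO would be lower than wild type if set against that line.

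In the Dnmt mutants Tet2 went with the scale. It had 63.8 CPM in Dnmt3a/3b DKO and 49.3 CPM in Dnmt1/3a/3b TKO, against 78.0 CPM in WT J1, which is lower in both mutants. Its TPM was 18.7 and 19.4 in these mutants, against 14.5 in WT J1, which is higher in both. RSEM's mean transcript length was 3570 bases in Dnmt3a/3b DKO and 2652 bases in Dnmt1/3a/3b TKO, against 4245 bases in WT J1.

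Tet3 was sparse, with 40 reads in the library labelled G9a/GLP DKO and 50 reads in G9a CM, against 39 reads in WT TT2, which gave 3.17 and 2.97 CPM against 1.61 CPM. Its ratios over WT TT2 were 1.97 (interval 1.24 to 3.14) and 1.85 (interval 1.19 to 2.88), and neither passed the size rule. In the 129S4/SvJae lines it had 4.27 CPM in Dnmt3a/3b DKO and 4.28 CPM in Dnmt1/3a/3b TKO, against 9.58 CPM in WT J1. Both mutants passed the rule as lower, at its edge, with log2 differences of -1.006 and -1.004 and levels 2.24-fold lower in each. The level in WT J1 was the highest of the 10 libraries, and both mutants would be higher than wild type if set against WT TT2. With the total count in place of the scaled library size the log2 differences were -0.85 and -0.84, short of the rule.

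The shares of the 3 Tet genes in their summed TPM differed between the lines and between libraries of the same line. Tet1 made up 79.3% of the sum in the library labelled G9a/GLP DKO and 88.7% in G9a CM, against 93.2% in WT TT2. Tet2 made up 20.2% and 10.9% in these mutants, against 6.63% in WT TT2. In the 129S4/SvJae lines Tet1 made up 68.2% of the sum in Dnmt3a/3b DKO and 60.8% of it in Dnmt1/3a/3b TKO, against 60.5% in WT J1. The summed TPM of the Tet genes was 59.96 TPM in Dnmt3a/3b DKO and 50.5 TPM in Dnmt1/3a/3b TKO, against 38.3 TPM in WT J1, whereas it was 61.7 for the library labelled G9a/GLP DKO and 66.3 for G9a CM, against 66.8 for WT TT2. In the inhibitor control, labelled as the same line as WT TT2, Tet1 made up 77.9% and Tet2 20.3%, and over the 3 UNC0638 libraries Tet1 made up 72.2% to 77.8%. These shares rest on the transcript lengths that RSEM assigned.

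**Figure D2:**
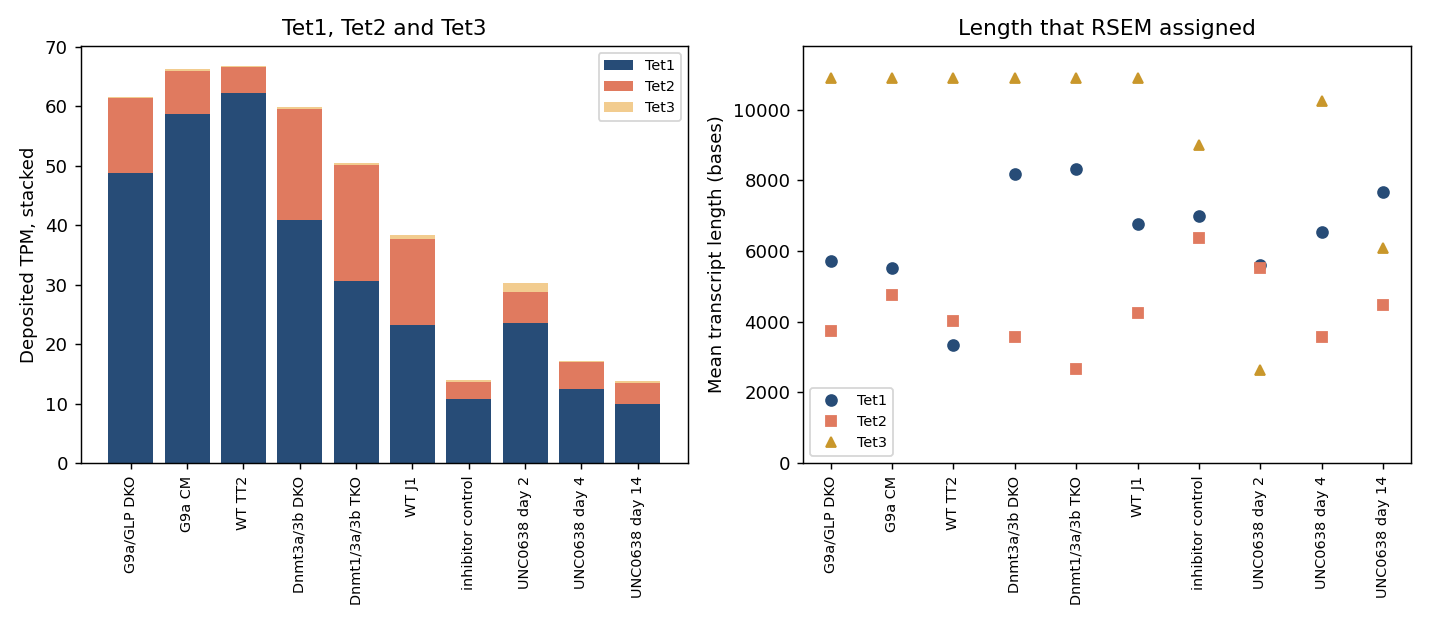
Left, deposited TPM of Tet1, Tet2 and Tet3 stacked for each of the 10 libraries; right, the mean transcript length in bases that RSEM assigned to each of these genes in the same libraries. The Tet2 segment is thinnest among the lines in WT TT2, at 4.43 TPM, and the Tet1 length is shortest there, at 3328 bases.

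Tdg, which encodes the glycosylase that acts after TET, differed most between sets of libraries. It had 16.9 CPM in the library labelled G9a/GLP DKO and 19.1 CPM in G9a CM, against 19.8 CPM in WT TT2, and both counting intervals of the ratio included 1. It had 2.31 CPM in Dnmt3a/3b DKO and 2.00 CPM in Dnmt1/3a/3b TKO, against 4.03 CPM in WT J1, from 39 and 37 reads against 61. The ratios of 0.574 (interval 0.374 to 0.871) and 0.497 (interval 0.321 to 0.760) had intervals under 1, and the log2 differences of -0.60 and -0.74 did not pass the rule. WT J1 was 4.92-fold lower than WT TT2 (log2 difference -2.05), and the inhibitor control was 3.70-fold higher than WT TT2 (interval 3.31 to 4.13).

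Tdg shares sequence with the processed pseudogenes Gm9855 and Tdg-ps, so reads may be split between them. In the 129S4/SvJae lines Gm9855 had 73 reads in Dnmt3a/3b DKO and 57 reads in Dnmt1/3a/3b TKO, against 42 reads in WT J1, which is more than Tdg itself in both mutants. Counted together, the 3 genes gave log2 differences of 0.0024 for Dnmt3a/3b DKO and -0.35 for Dnmt1/3a/3b TKO over WT J1, a sum chosen after these values were seen. The lower Tdg level in the Dnmt mutants is uncertain, since it rests on few reads and was smaller or absent on the sum. WT J1 stayed lower than WT TT2 on the sum, with a log2 difference of -1.69. RSEM's posterior SD of the count was 0 for Gm9855 and Tdg-ps in every library and up to 3.69% of the count for Tdg. Whether reads were assigned to the wrong gene was not tested.

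Mbd1 stood apart in G9a CM. It had 6.65 CPM in the library labelled G9a/GLP DKO and 2.67 CPM in G9a CM, against 8.04 CPM in WT TT2, and the G9a CM value, from 45 reads, was the lowest of the 10 libraries. It was the 1 gene of the 9 past the size rule for G9a CM over WT TT2, where 10.7% of all genes passed, at 3.01-fold lower (interval 2.17 to 4.26) and a log2 difference of -1.30. It was also the 1 gene past the rule for the library labelled G9a/GLP DKO over G9a CM, where 9.67% passed, with a ratio of 2.49 (interval 1.71 to 3.66). Both comparisons share the G9a CM library. In log2(TPM + 1), where 1 is a larger share of so low a level, these differences were -0.85 and 0.73. In the Dnmt mutants Mbd1 had 6.64 and 6.82 CPM, against 9.25 CPM in WT J1, and did not pass.

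Mbd2 and Mbd3 encode the alternative NuRD subunits, and Mbd3 had more RNA per length in every library. Mbd2 had 5.14 CPM in the library labelled G9a/GLP DKO and 2.91 CPM in G9a CM, against 3.91 CPM in WT TT2, with both intervals of the ratio over wild type including 1. It had 7.17 CPM in Dnmt3a/3b DKO and 6.77 CPM in Dnmt1/3a/3b TKO, against 9.58 CPM in WT J1, short of the rule in both.

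Mbd3 had the largest difference among the 9 genes in the Dnmt mutants. It had 617 reads in Dnmt3a/3b DKO and 633 reads in Dnmt1/3a/3b TKO, against 208 reads in WT J1, which gave 36.6 and 34.3 CPM against 13.7 CPM. The ratios were 2.66 (interval 2.27 to 3.13) and 2.49 (interval 2.13 to 2.93), log2 differences of 1.35 and 1.26. With Tet3 this made 2 of 9 genes past the rule for Dnmt3a/3b DKO over WT J1, where 19.3% of all genes passed, and 2 of 9 for Dnmt1/3a/3b TKO over WT J1, where 21.7% passed. Both comparisons share the WT J1 library, whose Mbd3 level was the lowest of the 10. WT TT2 had 35.6 CPM, so against that line the same mutants gave log2 differences of 0.036 and -0.055. In the C57BL/6xCBA lines Mbd3 had 49.0 CPM in the library labelled G9a/GLP DKO and 40.2 CPM in G9a CM, against 35.6 CPM in WT TT2, higher by log2 differences of 0.45 and 0.17, neither past the rule.

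For 7 of the 9 genes, the 250 bases before a start listed in the RefSeq promoter table (GRCm38.p6) were taken. Those of Mbd1 and Mbd2 were not looked for. The windows of Mbd3 and Zbtb33 lie wholly outside the annotated gene. They are printed here because they mark the CpG-poorer and a CpG-richer end of the 7. They are written 5′ to 3′ on the gene's strand, with each CpG, the site that is methylated and that these proteins act on, in capitals. Mbd3 is at chr10:80399532-80399781 on the minus strand and Zbtb33 at chrX:38189543-38189792 on the plus strand.
Mbd3: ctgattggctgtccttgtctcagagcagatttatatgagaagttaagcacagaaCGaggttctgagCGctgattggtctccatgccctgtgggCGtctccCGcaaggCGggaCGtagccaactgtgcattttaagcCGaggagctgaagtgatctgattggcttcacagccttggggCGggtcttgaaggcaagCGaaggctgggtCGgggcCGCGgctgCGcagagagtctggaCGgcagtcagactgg
Zbtb33: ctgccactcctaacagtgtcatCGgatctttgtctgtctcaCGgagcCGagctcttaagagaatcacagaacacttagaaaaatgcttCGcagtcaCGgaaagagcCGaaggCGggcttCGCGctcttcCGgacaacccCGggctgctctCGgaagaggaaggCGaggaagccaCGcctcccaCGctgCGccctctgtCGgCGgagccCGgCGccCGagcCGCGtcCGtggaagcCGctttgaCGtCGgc

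The Mbd3 window held 14 CpGs, the fewest of the 7, and 29.4% of all 32851 promoters in the table held at least as many. The Zbtb33 window held 27, which 8.56% of promoters reached. Tet1 had 15, Tet3 17, Tdg 19 and Mbd4 22. The Tet2 window held 51, reached by 0.067% of promoters. The windows of Tet2 and Tet3 lie inside the annotated gene, and those of Tet1, Tdg and Mbd4 overlap it in part. All 7 were above the median of 6 CpGs. On both strands, the letters CGCG were found in 6 of the 7 windows and in 33.8% of all promoters, while TCCTGCNA, the core letters bound by Kaiso, were found in 0 of the 7 and in 4.03% of all. Some of the CGCG matches overlap each other's CpGs. No methylation of these windows was measured here.

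Mbd4, the mismatch glycosylase, was the steadiest gene of the 9, with a ratio of 1.66 between its highest and its lowest CPM over all 10 libraries. It had 15.5 CPM in the library labelled G9a/GLP DKO and 21.8 CPM in G9a CM, against 22.5 CPM in WT TT2. The first of these was a ratio of 0.688 (interval 0.582 to 0.812), short of the rule. The Dnmt mutants had 17.2 and 17.6 CPM, against 16.9 CPM in WT J1, and both intervals included 1.

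Zbtb33 had 3.25 CPM in the library labelled G9a/GLP DKO and 3.03 CPM in G9a CM, against 3.75 CPM in WT TT2, with both intervals including 1. In the 129S4/SvJae lines it had 11.6 CPM in Dnmt3a/3b DKO and 6.82 CPM in Dnmt1/3a/3b TKO, against 11.3 CPM in WT J1. The level in Dnmt1/3a/3b TKO was 0.587 of that in Dnmt3a/3b DKO (interval 0.465 to 0.738), a log2 difference of -0.69 and the largest between these mutants. None of the 9 genes passed the rule in that comparison, where 3.13% of all genes did. RSEM's posterior SD of the Zbtb33 count was up to 6.24% of that count, against 0% in every library for Tet1, Tet2, Tet3, Mbd1, Mbd2 and Mbd3.

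**Figure D3:**
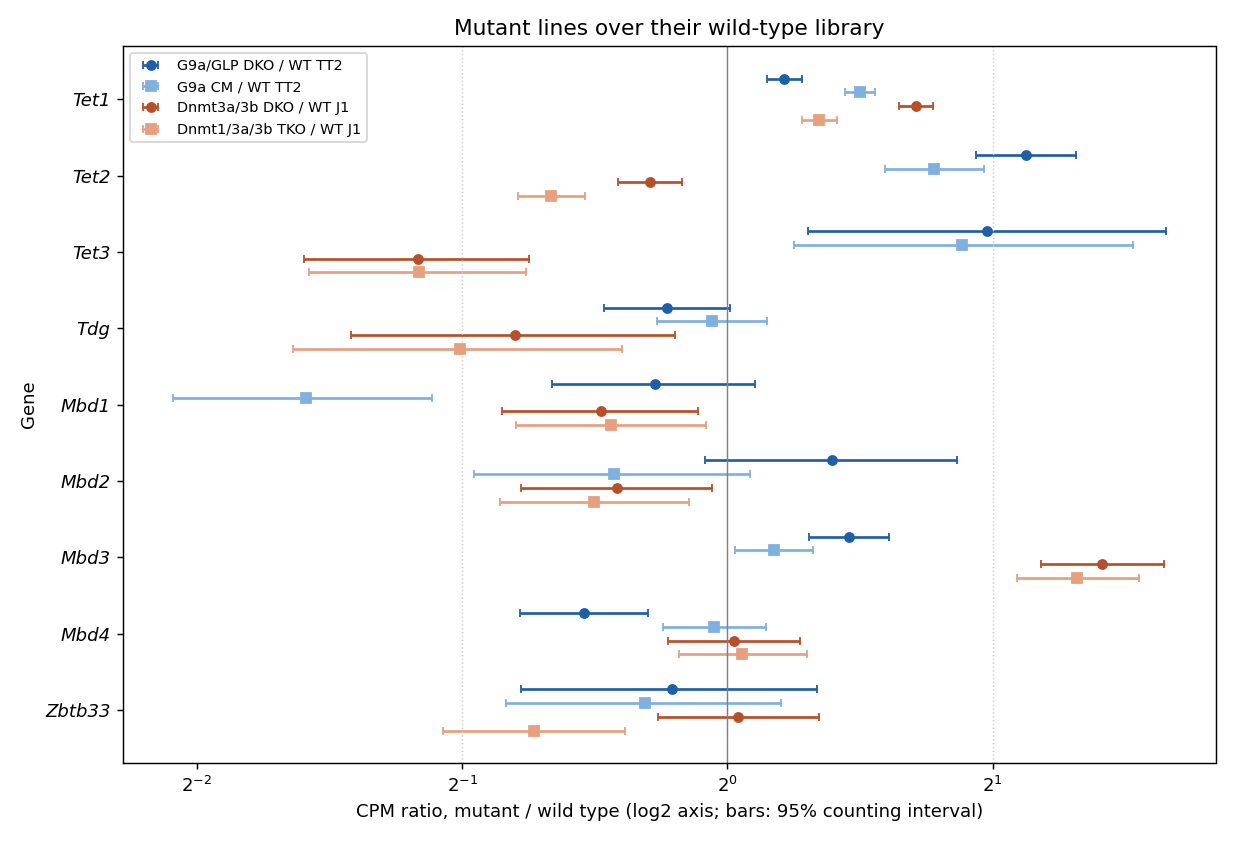
CPM ratio of each mutant line over its own wild-type library on a log2 axis (horizontal) for the 9 genes (vertical), with bars for the 95% counting interval and dotted lines at 2-fold. Tet2 in the library labelled G9a/GLP DKO (2.18) and Mbd3 in both Dnmt mutants (2.66 and 2.49) lie beyond the upper line, Mbd1 in G9a CM (0.332) Tet3 in both Dnmt mutants (0.446 each) and Tdg in Dnmt1/3a/3b TKO (0.497, short of the size rule) beyond the lower one.

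UNC0638 was not followed by a difference past the rule in any of the 9 genes. The count was 0 of 9 on day 2, where 4.9% of all genes passed, 0 of 9 on day 4, where 2.7% passed, and 0 of 9 on day 14, where 3.27% passed. Mbd2 and Zbtb33 were under 1 CPM in the control and could be measured by the rule only where a treated library reached it, so 7, 8 and 8 genes were measured.

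Tet1 had 60.9 CPM in the inhibitor control and 85.8, 67.1 and 55.5 CPM on day 2, 4 and 14. The ratio on day 2 was 1.41 (interval 1.30 to 1.53), and that on day 14 was 0.911 (interval 0.828 to 1.00). In TPM the day 2 level was 23.6, against 10.9 in the control, a log2 difference of 1.05. Genes with transcripts of 6000 bases or longer had a median log2 difference of 0.31 on day 2 in CPM, and those under 1500 bases one of -0.19, and the part of this in the Tet1 value was not tested.

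Mbd3 had 115 CPM in the inhibitor control and 75.8, 135 and 93.9 CPM on day 2, 4 and 14. It was thus lower on day 2 (ratio 0.659, interval 0.614 to 0.708), higher on day 4 (1.18) and lower on day 14 (0.817), with no common direction. Tet2 had 14.4 CPM in the control and 18.8, 13.1 and 10.8 CPM on the 3 days, again with no common direction. Mbd1 had 17.0 CPM in the control and 18.9, 15.4 and 13.2 CPM on the 3 days. Tdg stayed between 61.3 and 73.3 CPM and Mbd4 between 22.0 and 25.8 CPM. Tet3 had 24 to 48 reads, Mbd2 7 to 16 reads and Zbtb33 10 to 24 reads, and their intervals were wide, as for Mbd2 on day 2, whose ratio of 1.11 had an interval of 0.427 to 3.09. The 3 days share 1 control library, whose title gives no day.

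The inhibitor control is labelled as the same wild-type line as WT TT2, and yet 5 of 9 genes were past the rule between them, as were 47.8% of all genes. Tdg, at 73.3 CPM in the inhibitor control, against 19.8 CPM in WT TT2, and Mbd3, at 115 CPM, against 35.6 CPM, were higher. Tet1, at 60.9 CPM, against 210.0 CPM, was 3.45-fold lower, Mbd2 was 6.65-fold lower with 8 reads, against 95, and Zbtb33 was 5.10-fold lower with 10 reads, against 91. Mbd1, at 17.0 CPM, against 8.04 CPM, was just short of the rule with a log2 difference of 0.99. Pou5f1 stood at 456 CPM in the inhibitor control, against 13.1 CPM in WT TT2, so the difference was not particular to these 9 genes, and no label says what else set the handling of these cultures apart. Genes with transcripts under 1500 bases had a median log2 difference of -0.84 between these libraries and those of 6000 bases or longer one of -0.64, while it was 0.35 from 1500 to 3000 bases and 0.21 from 3000 to 6000 bases. In TPM, 3 of the 9 were higher (Tdg, Mbd3 and Mbd1, the last by 1.29 in log2(TPM + 1)) and 1 lower (Tet1), as Mbd2 (-0.84) and Zbtb33 (-0.54) fell short. The G9a mutants were set against the inhibitor control only as an alternative to WT TT2.

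WT J1 and WT TT2 differ in strain and line, and 6 of 9 genes were past the rule between them, against 23.8% of all genes. The median size of the log2 difference was 1.31 for the 9 genes, against 0.56 for all genes. Higher in WT J1 were Tet2 (4.28-fold, interval 3.84 to 4.79), Tet3 (5.96-fold, interval 4.16 to 8.72), Zbtb33 (3.01-fold) and Mbd2 (2.45-fold). Lower were Tdg (4.92-fold) and Mbd3 (2.59-fold). Tet1 differed by -0.054 in log2(CPM + 1) but by -1.39 in log2(TPM + 1). In TPM the count was 1 higher (Tet2) and 3 lower (Tet1, Tdg and Mbd3), since Tet3 (0.55), Mbd2 (0.69) and Zbtb33 (0.67) fell short on that scale. With 1 library of each, strain, line and library cannot be told apart.

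**Figure D4:**
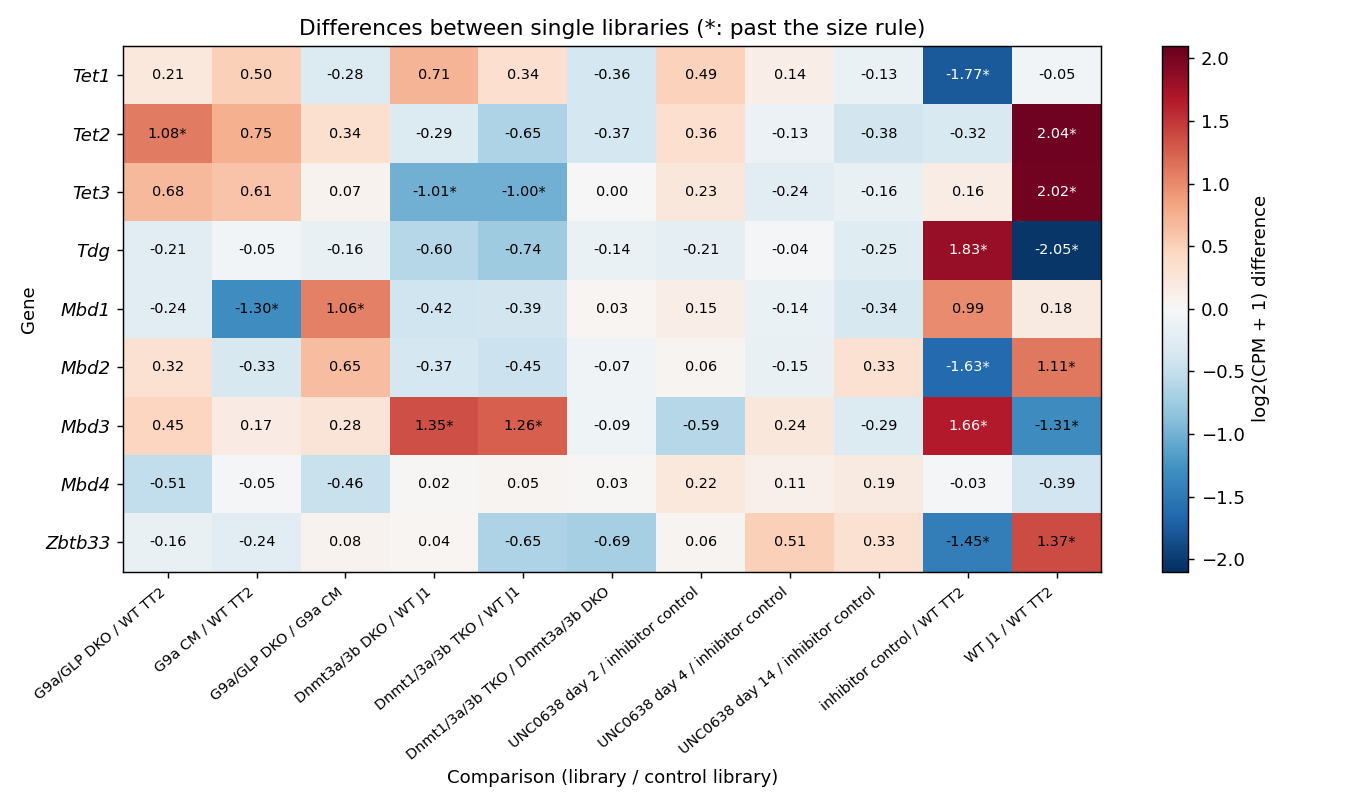
Differences of log2(CPM + 1) for the 9 genes (rows) in the 11 comparisons (columns), printed and coloured from blue (lower in the first-named library) to red (higher), with an asterisk where the size rule was passed. The 2 right-hand columns, between wild-type libraries, hold 11 of the 18 asterisks.

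Genes of the same pathways were counted by the same rule. Of the partners and regulators of TET enzymes, 12 of 13 were measured, and 0 passed in either G9a mutant over WT TT2. Of all genes, 17.1% and 10.7% passed in those comparisons. In each Dnmt mutant over WT J1, where 19.3% and 21.7% of all genes passed, the same count was 2 higher and 0 lower. They were Dppa3, a maternal factor that shields methylated DNA from TET3 in the zygote, at 290 and 198 CPM, against 4.69 CPM in WT J1, and Lin28a, an RNA-binding protein, at 16.4 and 14.9 CPM, against 5.75 CPM in WT J1. Dppa3 stood at 575 CPM in WT TT2, which differs in strain and line, above WT J1 and both Dnmt mutants. Whether its difference from WT J1 came from the WT J1 library or from the mutations was not tested.

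Base excision repair and other genes named in active demethylation formed a list of 17. In the library labelled G9a/GLP DKO over WT TT2, 2 of 17 were higher and 5 lower, where 17.1% of all genes passed, with a median log2 difference of -0.27, against -0.014 for all genes. Gadd45g had 18.3 CPM there, against 1.77 CPM in WT TT2, and Gadd45b 16.1 CPM, against 3.50 CPM. These are stress-inducible genes of the Gadd45 family. Neil3, a glycosylase for oxidised bases, had 5.86 CPM, against 19.3 CPM. In G9a CM, where 10.7% of all genes passed, 3 were higher and 1 lower: Gadd45g at 63.7 CPM, Gadd45b at 10.8 CPM and the uracil glycosylase Ung at 48.7 CPM, against 22.4 CPM for Ung in WT TT2, and Neil3 at 2.97 CPM. Both comparisons share WT TT2.

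In the Dnmt mutants over WT J1 that list had 2 higher and 2 lower of 17 in Dnmt3a/3b DKO, where 19.3% of all genes passed, and 2 higher and 1 lower in Dnmt1/3a/3b TKO, where 21.7% passed. Lig3, the ligase of base excision repair, had 28.1 and 34.7 CPM, against 7.86 CPM in WT J1. Gadd45g had 6.82 and 6.55 CPM, against 0 reads in WT J1, which is at least 34.4-fold and 33.0-fold higher when WT J1 is set at 3 reads (0.198 CPM). Neil2, another glycosylase for oxidised bases, had 0.474 and 0.65 CPM, against 5.09 CPM in WT J1.

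Of the NuRD subunits other than Mbd2 and Mbd3, 12 were measured in the library labelled G9a/GLP DKO over WT TT2, with 1 higher (Mta3, 69.7 CPM against 33.9 CPM) and 1 lower (the helicase gene Chd3, 0.95 CPM against 4.29 CPM). In G9a CM 0 were higher and 1 lower, again Chd3, at 1.37 CPM. In both Dnmt mutants 0 of 13 passed in either direction. Of all genes, 17.1% and 10.7% passed in the G9a mutants over WT TT2, and 19.3% and 21.7% in the Dnmt mutants over WT J1. Among the partners of Mbd1, Mbd4 and Zbtb33, 0 of 10 passed in either G9a mutant and 1 of 10 in each Dnmt mutant: Chaf1a, the large subunit of the chromatin assembly factor that MBD1 binds, at 10.49 CPM in Dnmt3a/3b DKO and 10.45 CPM in Dnmt1/3a/3b TKO, against 4.23 CPM in WT J1.

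Among the other readers of DNA methylation, 7 of 10 were measured. Uhrf1, which reads hemimethylated DNA for DNMT1, had 131 CPM in the library labelled G9a/GLP DKO, against 62.8 CPM in WT TT2. Hmces, which binds abasic sites in DNA, had 339 CPM in G9a CM, against 167 CPM in WT TT2. Both were the 1 gene of the list past the rule in their comparison, where 17.1% and 10.7% of all genes passed. Over WT J1, 0 of 7 passed in Dnmt3a/3b DKO and 1 of 7, a lower gene, in Dnmt1/3a/3b TKO. Of all genes, 19.3% and 21.7% passed there. Under UNC0638 on day 2, 0 of these readers passed, while 2 of the 17 base excision repair and active demethylation genes were lower. They were Apex1, the abasic site endonuclease, at 298 CPM, against 631 CPM in the inhibitor control, and Gadd45a at 13.7 CPM, against 39.6 CPM. Of all genes, 4.9% passed on day 2. On days 4 and 14, where 2.7% and 3.27% of all genes passed, 0 genes of these lists did.

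The DNA methyltransferase genes and their cofactor Dnmt3l, which make and stimulate the mark that these proteins oxidise or read, were counted in the same way. In the library labelled G9a/GLP DKO over WT TT2, 2 of 4 were higher, Dnmt3b at 226 CPM, against 107 CPM, and Dnmt3l at 181 CPM, against 77.3 CPM. In G9a CM 3 of 4 were higher, Dnmt3a at 146 CPM, against 56.5 CPM in WT TT2, Dnmt3b at 304 CPM and Dnmt3l at 351 CPM. Of all genes, 17.1% and 10.7% passed in these comparisons. In the inhibitor control over WT TT2, where 47.8% of all genes passed, 4 of 4 were higher. The list summed to 1035 CPM in that control, against 294 CPM in WT TT2, 563 CPM in the library labelled G9a/GLP DKO and 855 CPM in G9a CM. In the Dnmt mutants the targeted genes were lower, and Dnmt3l was higher, at 205 CPM in the double and 255 CPM in the triple mutant, against 33.2 CPM in WT J1. Of all genes, 19.3% and 21.7% passed in these mutants over WT J1. Under UNC0638, 1 of 4 was lower on day 2 and 0 of 4 passed on day 4 or day 14. The list summed to 750, 1037 and 848 CPM on these days, against 1035 CPM in the inhibitor control. Of all genes, 4.9%, 2.7% and 3.27% passed on them.

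Genes whose levels ran most like those of a member were found by Pearson's r of log2(CPM + 1) over the 10 libraries, among 8193 genes with a mean of at least 10 CPM. They were Zfp992 (r = 0.993) and Ttc37 (0.991) for Tet1, Fam122b (0.989) and Relch (0.986) for Tet2, Serpinb6c (0.977) and Smcr8 (0.963) for Tet3, Nlrx1 (0.991) and Hdac1 (0.990) for Tdg, and Trim44 (0.987) and Ptbp3 (0.984) for Zbtb33. The libraries fall into the inhibitor experiment and the lines, and 794 genes reached an r of 0.9 with Tet1, 570 with Tdg and 661 with Zbtb33. Over the 6 lines alone the first gene was Ubqln1 for Tet1, Snhg12 for Tet2, Serpinb6c again for Tet3, Rabl2 for Tdg and Bicral for Zbtb33, with r between 0.987 and 0.998. Points share strain and library in each case, and r is a description only.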

How the data were processed

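RNA-seq libraries of 10 groups, 1 library each, were analysed. STAR 2.5.3a and RSEM on GRCm38 (mm10) are named in the submitters' processing notes. Annotation release and any use of strand are not given in the sources used here. Per the file headers, the deposited values were expected counts, in which RSEM shares reads that match several genes, with their posterior mean and SD, TPM scaled for length and library total, and the mean transcript length of each gene.

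Expected counts were rounded and scaled with TMM factors over all 10 libraries (edgeR 4.0.16). Ratio intervals are exact 95% conditional binomial (Clopper-Pearson) intervals and, as Smart-seq2 reads carry no molecular identifiers, cover counting error only. The size rule was computed for every gene with 1 CPM in either library and describes libraries, not conditions. It was tested on simulated data. Gene IDs were matched without version, and 147 had no symbol.

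The 9 genes, the pathway and marker lists and the comparisons were chosen with earlier results of these data known. List genes named are those past the rule, at most 4 per list and comparison, from the largest difference down. A paragraph may name fewer, and some list genes are not reported here. Alternatives were DESeq2 1.42.0 size factors, total counts, posterior mean counts, a pseudocount of 0.1, no minimum, a 1.5-fold threshold, TPM, and another wild-type library. Promoter windows came from a RefSeq table of GRCm38.p6. Python 3.11.15 and scipy 1.17.1 were used.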

Additional observations from a re-analysis of the deposited data

How the results depend on the processing

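Counts of the 9 genes past the rule moved by no more than 1.5 times with DESeq2 size factors, posterior mean counts, a pseudocount of 0.1 CPM or no minimum. Scaled by total count, 1 gene was left in each Dnmt mutant over WT J1 (2 each by the rule as used), where 20.1% and 22.4% of all genes passed. In TPM, 0 were left in G9a CM over WT TT2 (12.6% of all genes), 0 in the library labelled G9a/GLP DKO over G9a CM (11.8%), 1 in the double (22.0%) and 1 in the triple Dnmt mutant (24.0%) over WT J1, and 1 was gained on UNC0638 day 2 (8.32%). TPM also left 1 higher and 3 lower in WT J1 over WT TT2 (4 and 2 by the rule as used), and 3 higher and 1 lower in the inhibitor control over WT TT2 (2 and 3). At 1.5-fold the counts were 2 (39.6% of all genes) for the library labelled G9a/GLP DKO and 3 (31.9%) for G9a CM over WT TT2, 2 (30.5%) between them, 4 (43.8%) for the double and 5 (45.8%) for the triple Dnmt mutant over WT J1, 1 (16.3%) between those, and 1 (20.1%) on day 2. Set against WT J1, the library labelled G9a/GLP DKO gave 4 (33.9% of all genes) and G9a CM 7 (32.2%). Set against the inhibitor control, each gave 7 (47.4% and 44.8%). Set against WT TT2, Dnmt3a/3b DKO gave 4 (15.5%) and Dnmt1/3a/3b TKO 3 (14.6%). The other wild type reversed Tet2 in the library labelled G9a/GLP DKO (-0.96 against WT J1), and, against WT TT2, Tet3 in the double (1.01) and triple (1.02) Dnmt mutant and Mbd3 in the triple mutant (-0.055). The cause was not tested. No paired analysis was possible because each group had 1 library and the labels give no replicate numbers. Counts under about 50 reads (Mbd1 in G9a CM, which carries both Mbd1 calls, Mbd2 there and in the inhibitor experiment, Tet3 and Zbtb33 in several libraries, Tdg in the Dnmt mutants) limit what could be seen.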
